A study of Mus musculus with 28 samples.

Results

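The 10 genes described here encode the TGF-beta ligands (Tgfb1, Tgfb2 and Tgfb3), their receptors (Tgfbr1, Tgfbr2 and Tgfbr3), the latent TGF-beta binding proteins Ltbp1 and Ltbp2, the subunit of activin A (Inhba) and the activin-binding protein follistatin (Fst). They were chosen by name as rows of the count table, which holds 29068 gene symbols. Of these symbols 18107 passed the filter on low counts, and all 10 genes were among them.

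The 28 libraries hold total RNA of wounded skin from C57BL/6J mice (MLKL+/+), with 4 libraries for each of 7 time points of natural wound healing, after a punch of 6 mm through the back skin down to the fascia at 8 weeks of age. The groups are called day 0, day 3, day 5, day 7, day 10, day 12 and day 14, as in the sample labels, and differ by their labels only in time. Day 0 is the control group of the series design, which places it after the injury, while the study calls the day on which the wound was made day 1, so the spacing of the days is not certain and day 0 is not described as unwounded skin. The tissue was the whole wound site with scab and margins, and the labels do not say whether the libraries of a day came from separate animals, so the p-values measure the spread between these libraries.

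TGF-beta ligands are secreted in a latent form, held in the extracellular matrix by latent TGF-beta binding proteins, and released by integrins, proteases and other factors. Active ligand binds the type II receptor TGFBR2, which recruits and phosphorylates the type I receptor TGFBR1, and this in turn activates SMAD2 and SMAD3. Activin A, a dimer of the product of Inhba, acts through its own receptors on the same SMADs, and follistatin binds and neutralises it. In skin wounds these factors are known for their roles in inflammation, matrix deposition and keratinocyte growth.

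RefSeq promoter windows of GRCm38.p6, from 250 bases before to 50 bases after a transcript start, were at hand for 7 of the 10 genes, in 9 windows. Shown are the 250 bases before the start for the ligand genes with such a window, since Inhba and Tgfb2 had the largest rise and the largest fall from day 0 among the 10 genes and Tgfb1 is the ligand that was high with Inhba. Capitals mark matches to 6 motifs searched on both strands in the whole window, namely AP-1 (TGANTCA), the cyclic AMP response element (TGACGTCA), the SMAD palindrome (GTCTAGAC), the SMAD repeat (CAGACA), the TATA box (TATAAA) and the TEAD motif (GGAATG). No match found in these windows overlapped another.
Inhba, chr13:16011601-16011850, plus strand: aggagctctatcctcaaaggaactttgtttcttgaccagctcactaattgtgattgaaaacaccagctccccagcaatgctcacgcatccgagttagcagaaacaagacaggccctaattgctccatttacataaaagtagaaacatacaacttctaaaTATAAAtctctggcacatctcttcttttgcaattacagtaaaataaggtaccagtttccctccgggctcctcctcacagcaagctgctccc
Tgfb1, chr7:25686752-25687001, plus strand: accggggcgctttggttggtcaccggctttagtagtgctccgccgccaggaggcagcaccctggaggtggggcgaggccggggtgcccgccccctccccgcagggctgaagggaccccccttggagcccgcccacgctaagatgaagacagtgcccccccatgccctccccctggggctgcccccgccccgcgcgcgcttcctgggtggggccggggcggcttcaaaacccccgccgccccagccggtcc
Tgfb2, chr1:186705990-186706239, minus strand: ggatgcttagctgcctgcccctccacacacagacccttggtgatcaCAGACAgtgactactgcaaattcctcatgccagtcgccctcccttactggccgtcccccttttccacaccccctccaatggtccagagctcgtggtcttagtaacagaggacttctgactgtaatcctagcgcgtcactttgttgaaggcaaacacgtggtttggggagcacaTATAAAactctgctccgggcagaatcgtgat
The window of Inhba held TATAAA starting at -91 from the transcript start, and that of Tgfb2 held TATAAA at -31 and CAGACA at -204. Of all 32851 RefSeq windows of this length, 13.6% held TATAAA on either strand and 21% held the SMAD repeat. The letters of the other motifs were not in the windows of these ligand genes. Elsewhere among the windows, Ltbp1 held TGACGTCA at -73, a motif in 1.79% of all windows, and the windows of another annotated start of Ltbp1 and of Tgfbr1 held the SMAD repeat. AP-1, the SMAD palindrome and the TEAD motif, which were in 7.81%, 0.213% and 14.7% of all windows, were in none of the 9 windows. These matches describe letters in a window and are not binding sites.

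The gene counts of a library summed to between 36706513 and 40655764. The libraries of day 0 varied more among themselves than those of any other day, with a common biological coefficient of variation of 26.4% on day 0 against 5.70% to 10.8% on the other days. Day 0 libraries 1 and 4 held more RNA of a list of 8 skeletal muscle markers (30521 and 31838 summed CPM, counts scaled to a common library total) than libraries 2 and 3 (18165 and 18545). They held less of a list of 10 fibroblast markers, 2609 and 2026 summed CPM against 4708 and 4612. Basal keratinocyte markers split in the way of the muscle list, with 7176 and 8335 summed CPM against 4008 and 4116. So did markers of smooth muscle and myofibroblasts, with 1421 and 1837 against 1036 and 1004. Every library held at least 2101 counts of Ddx3y and at most 13 of Xist. On day 0, Tgfb2, Tgfbr2, Tgfbr3, Ltbp1 and Fst were lower and Tgfb1 and Ltbp2 were higher in FPKM in both of libraries 1 and 4 than in either of libraries 2 and 3.

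All later time points were set against day 0 in 1 fit of all libraries with the quasi-likelihood test of edgeR, and a gene was called higher or lower at a Benjamini-Hochberg adjusted p under 0.05 over all genes tested. On day 3, Tgfb1, Tgfbr1, Ltbp2 and Inhba (4 of 10) were called higher, beside 31.8% of all genes, and Tgfb2, Tgfb3, Ltbp1 and Fst (4 of 10) were called lower, beside 34.8%. On day 5 the same comparison called 5 higher (29.0% of all genes), with Tgfbr2 now among them, and 4 lower (30.6%).

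On day 7, 5 of the 10 genes were called higher (25.6% of all genes) and 2 lower (24.8%), and on day 10 4 were called higher (23.5%) and 3 lower (26.9%). On day 12, 3 were called higher (21.7%) and 3 lower (25.6%), which became 5 higher and 3 lower with no composition normalization, when Tgfb1 and Ltbp2 were called too (adjusted p = 0.024 and 0.0040). On day 14 Inhba alone was called higher (1 of 10, 28.2% of all genes) and 8 of 10 were called lower (34.5%), which became 2 higher and 6 lower with no composition normalization, when Tgfbr1 was called higher (adjusted p = 0.037). Tgfb1 and Ltbp2 were then not called lower, nor were they with DESeq2 or its size factors, no filter, limma voom, the 8 libraries of both days alone or either log2 FPKM scale, each of which gave 6 lower. The median log2 fold change of the 10 genes was 0.13 on day 3 and -0.52 on day 14, beside -0.03 and -0.06 over all genes tested. These 6 comparisons share the day 0 libraries.

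**Figure D1:**
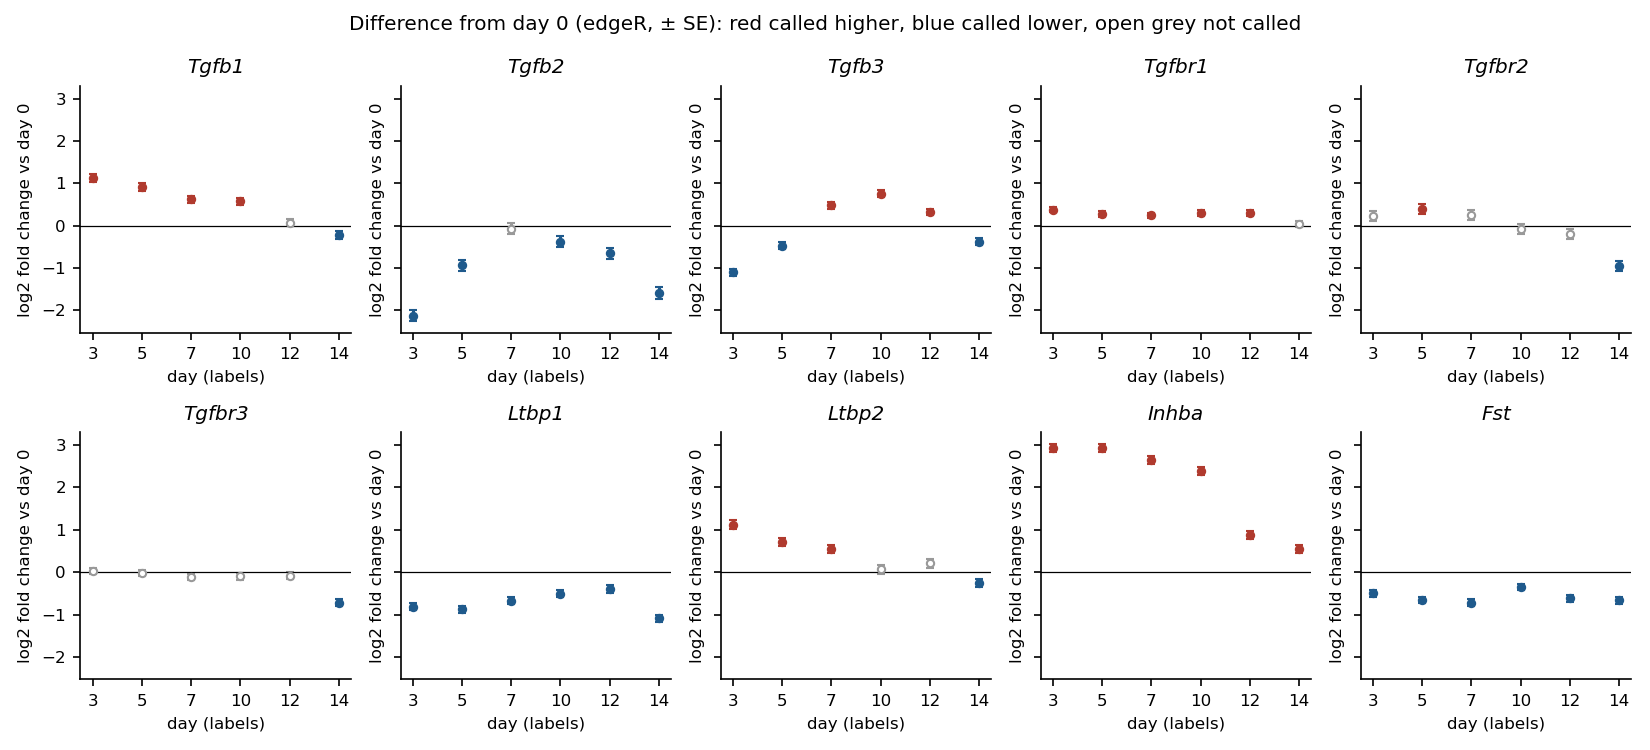
Log2 fold change against day 0 on days 3 to 14 (x axis) for each of the 10 genes, with its standard error, from edgeR; red points were called higher, blue points lower and open grey points were not called. Inhba stands at 2.94 on day 3 and 0.55 on day 14, Tgfb2 at -2.12 on day 3, and Tgfbr3 near 0 until day 12.

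**Figure D2:**
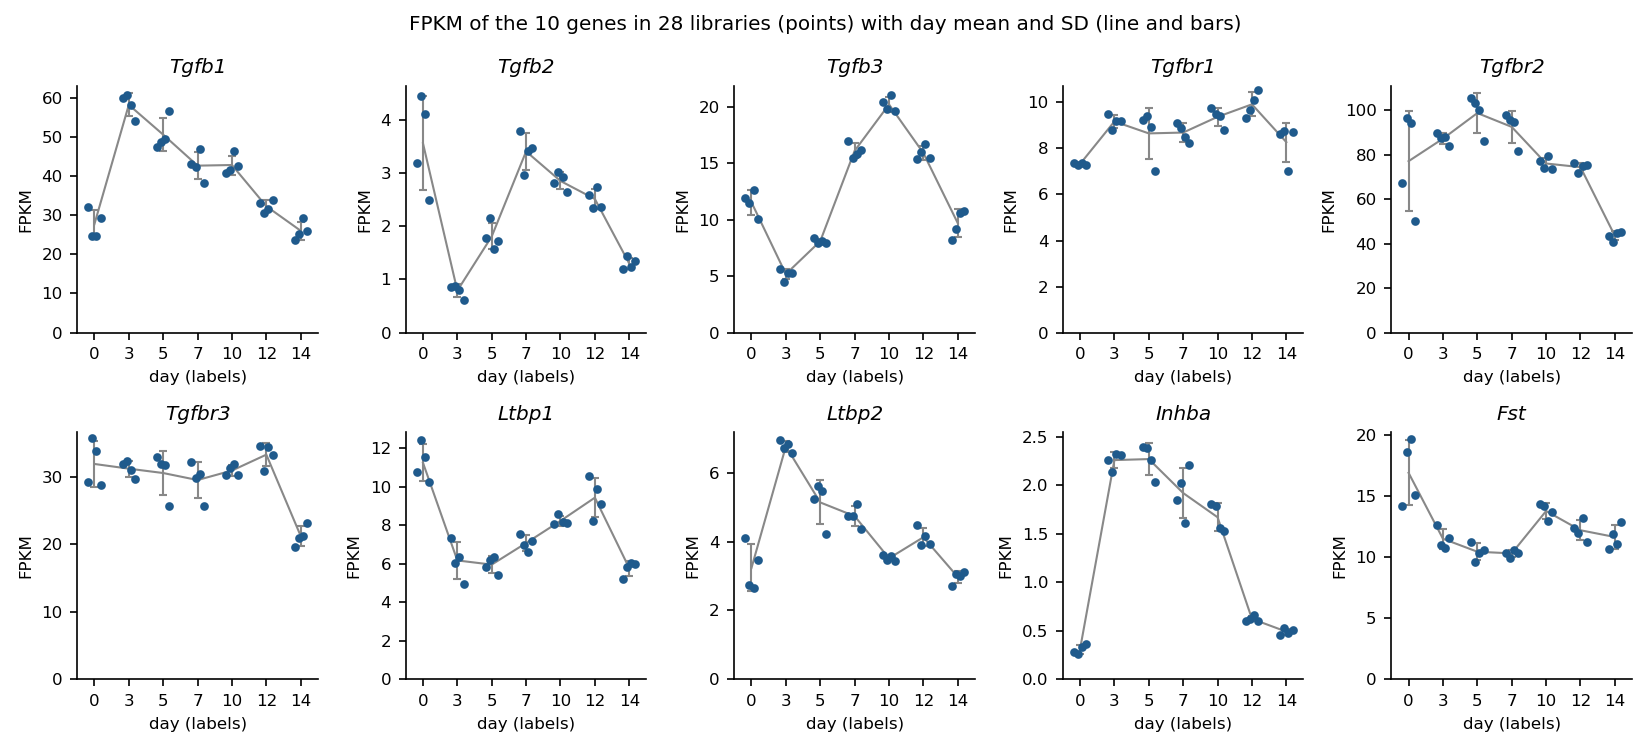
FPKM (y axis, from 0) of each gene in the 28 libraries by day (x axis); points are libraries, and the line and bars give the day mean and SD of 4 libraries. Inhba and Tgfb1 are high on day 3, Tgfb2 and Tgfb3 are low on day 3, Tgfb3 is highest on day 10 and Tgfb2 has its highest means on days 0 and 7, and Tgfbr2 spreads from 50.1 to 96.5 on day 0.

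Tgfb1, on chromosome 7 (25687002 to 25705077, plus strand, GRCm38), encodes the main TGF-beta of platelets and macrophages. Its level was 32.2, 24.7, 24.6 and 29.3 FPKM (fragments per kilobase of gene, scaled to the library total) in the 4 libraries of day 0, and 59.9, 60.6, 58.2 and 54.0 FPKM on day 3. It was 47.4, 48.8, 49.5 and 56.6 FPKM on day 5. All libraries of days 3 and 5 lay above all libraries of day 0, and Tgfb1 was 2.18-fold higher on day 3 (log2 fold change 1.13 ± 0.09 SE, edgeR adjusted p = 7.5e-12, exact permutation p = 0.0286, the smallest that 4 against 4 libraries allow).

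The level of Tgfb1 then declined. It was called higher than on day 0 on day 7 (log2 fold change 0.62) and day 10 (0.57), with no overlap between libraries, and was not called on day 12 (0.08, adjusted p = 0.50). The day 14 libraries gave 23.8, 25.1, 29.2 and 26.0 FPKM, which overlapped the values of day 0. The call of a lower level on day 14 (log2 fold change -0.22 ± 0.09, adjusted p = 0.034) was weak, since the exact permutation p was 0.17 and the call was lost without either of day 0 replicates 1 and 4 or any of day 14 replicates 1, 2 and 4 (adjusted p 0.071 to 0.59), and in 8 other alternatives. In the order of mean levels, here and below on TMM-scaled log2 CPM, day 3 stood highest and overlapped day 5, days 7 and 10 overlapped each other, and days 12, 0 and 14 followed with overlaps between neighbours.

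Tgfb2, on chromosome 1 (186622792 to 186705989, minus strand), encodes a ligand with known roles in the hair follicle and in development. Its level was 3.2, 4.45, 4.12 and 2.5 FPKM on day 0 and 0.868, 0.884, 0.804 and 0.604 FPKM on day 3. Every library of day 3 was below every library of day 0. The fall was 4.34-fold (log2 fold change -2.12 ± 0.14, adjusted p = 1.5e-13, exact permutation p = 0.0286), the largest decrease from day 0 among the 10 genes.

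By day 7 Tgfb2 was back at 3.79, 2.96, 3.42 and 3.47 FPKM, within the range of day 0 (log2 fold change -0.07, adjusted p = 0.68). It was called lower on day 5 (-0.94), day 12 (-0.65) and day 14 (-1.58 ± 0.13, adjusted p = 5.2e-11). On day 14 the libraries gave 1.20, 1.43, 1.23 and 1.34 FPKM, all below day 0. The call on day 10 (-0.38, adjusted p = 0.016) went with overlapping libraries and an exact permutation p of 0.17, and it was lost without day 0 replicate 2, day 0 replicate 3 or day 10 replicate 4 (adjusted p = 0.11, 0.068 and 0.053), with the 8 libraries of both days alone (0.11) and on log2(FPKM + 1) and log2(FPKM + 0.1) (0.057 and 0.091). Day 0 libraries 1 and 4, with the higher muscle markers, had the lower Tgfb2.

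Tgfb3, on chromosome 12 (86056745 to 86079041, minus strand), encodes the isoform known for its link to reduced scarring. It had 11.9, 11.5, 12.6 and 10.1 FPKM on day 0 and fell to 5.64, 4.51, 5.31 and 5.24 FPKM on day 3 (log2 fold change -1.10 ± 0.08, adjusted p = 1.2e-12). It rose to 20.4, 19.7, 20.99 and 19.6 FPKM on day 10 (log2 fold change 0.75 ± 0.08, adjusted p = 3.7e-09). The day 3 libraries were all below and the day 10 libraries all above those of day 0 (exact permutation p = 0.0286 for each).

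The time course of Tgfb3 was an early trough and a late peak. It was still lower than on day 0 on day 5 (log2 fold change -0.47), higher on day 7 (0.48) and day 12 (0.32), and lower on day 14 (-0.38 ± 0.08, adjusted p = 0.00011). On day 14 its libraries gave 8.17, 9.19, 10.6 and 10.7 FPKM, of which the last 2 lay above the lowest library of day 0. On TMM-scaled values replicate 3 alone did (exact permutation p = 0.057). The day 14 difference ranged from -0.44 to -0.23 over the alternatives that recomputed it, and stayed called. Between days 3 and 10 the gain was 1.85 ± 0.08 on the log2 scale (adjusted p = 3.1e-17). In the order of levels, day 10 was set apart from day 7, day 7 from day 12 and day 12 from day 0. Below these, day 0 overlapped day 14 and day 14 overlapped day 5.

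The share of each isoform in the summed FPKM of the TGF-beta ligands moved with these changes. Tgfb1 made up 64.6% ± 5.2 (SD, n = 4) at day 0 and 90.7% ± 0.8 at day 3. By day 10 its share was 65.0% ± 1.0, and at the end it was 70.4% ± 1.5. Tgfb3 made up 27.0% on day 0, 8.08% on day 3 and 31.4% on day 12, and Tgfb2 made up 8.41% on day 0 and 1.23% on day 3. The ligands together reached 42.8, 64.2, 65.9 and 37.0 FPKM on days 0, 3, 10 and 14, respectively. With the exon lengths of GENCODE M21 these sums were 28.9, 31.7, 43.1 and 22.9, so the size of the rise by day 3 depends on the lengths.

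The level of a gene relative to another depends on the gene lengths behind FPKM. The deposited values correspond to a length of 2197 bases for Tgfb1, where the exons of GENCODE M21 cover 5042, and to 8523 bases for Tgfb2 against 5791. With the GENCODE lengths, Tgfb1 made up 41.9% of the ligands on day 0, 80.0% on day 3 and 43.3% on day 10, and Tgfb3 made up 39.9%, 16.4% and 46.9%. Thus on day 10 Tgfb1 was the most abundant ligand by one length and Tgfb3 by the other, while on day 3 Tgfb1 was by far the most abundant with either. Changes of 1 gene between days do not depend on its length.

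**Figure D3:**
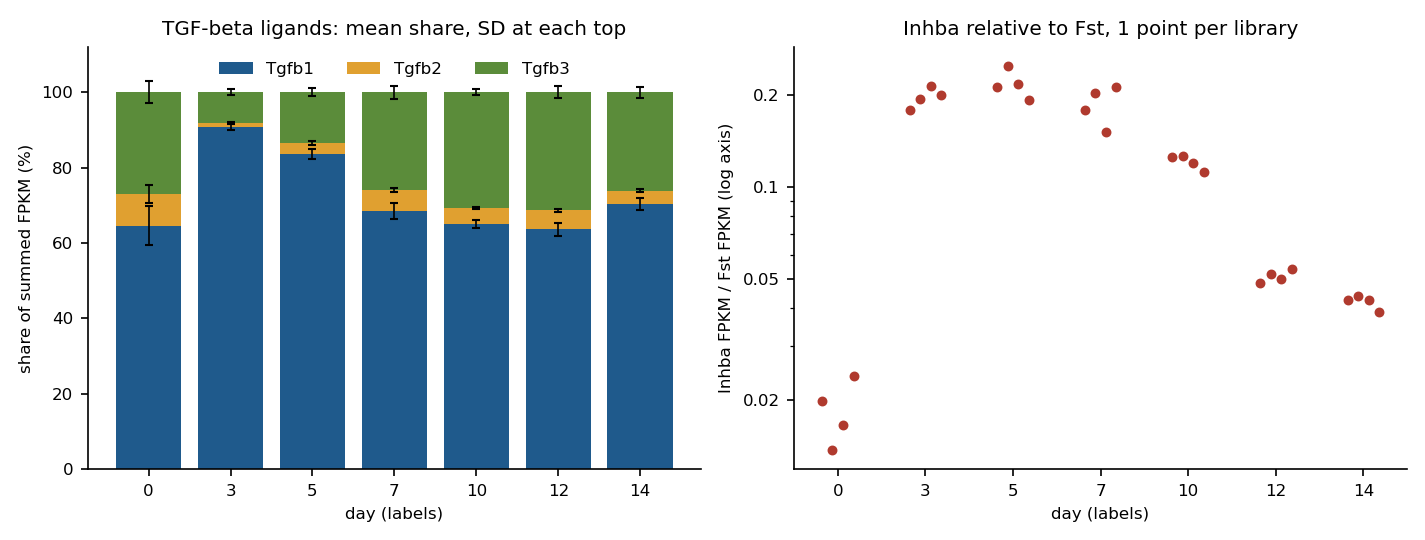
Left, mean share (%) of Tgfb1, Tgfb2 and Tgfb3 in their summed FPKM by day, with the SD of 4 libraries at the top of each segment; right, ratio of Inhba to Fst FPKM (log axis) by day, 1 point per library. The share of Tgfb1 is 90.7% on day 3, and the ratio is 0.0186 on day 0 and 0.218 on day 5.

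Among the receptors, Tgfbr1 changed little in size. The gene, on chromosome 4 (47353222 to 47414931, plus strand), encodes the type I receptor kinase. Its level was 7.37, 7.26, 7.38 and 7.28 FPKM on day 0, the narrowest spread relative to its mean of the 10 genes on that day, and 9.51, 8.80, 9.20 and 9.18 FPKM on day 3. It was called higher on days 3, 5, 7, 10 and 12, with log2 fold changes of 0.38, 0.28, 0.24, 0.30 and 0.29, and all libraries lay above day 0 on these days except 1 library of day 5 (7.04 FPKM). On day 14 it was not called (0.05, adjusted p = 0.56), with 7.00 FPKM in replicate 3 and 8.62 to 8.74 in the other libraries.

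Tgfbr2, on chromosome 9 (116084293 to 116175360, minus strand), encodes the type II receptor that binds the ligand, and it had the highest FPKM of the 10 genes on every day. On day 0 it was 67.4, 96.5, 94.4 and 50.1 FPKM, and libraries 1 and 4, with the higher muscle markers, were again the lower ones. On day 5 it was 106, 103, 100 and 86.0 FPKM, called higher (log2 fold change 0.40 ± 0.12, adjusted p = 0.0060), with 3 of 4 libraries above day 0 (exact permutation p = 0.086). This call was lost when only the 8 libraries of both days were fitted (adjusted p = 0.15), and the log2 fold change was 0.25 without day 0 replicate 4.

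The clearest change of Tgfbr2 was a fall on day 14, to 43.3, 40.8, 44.7 and 45.2 FPKM, below every library of day 0. It was 1.93-fold lower than on day 0 (log2 fold change -0.95 ± 0.12, adjusted p = 1.3e-07). On days 3, 7, 10 and 12 it was not called, with log2 fold changes of 0.23, 0.26, -0.07 and -0.19. These results depended on single libraries and on the method. Without day 0 replicate 2 or 3 it was called higher on days 3 and 7 (adjusted p 0.0080 to 0.015), and also without day 3 replicate 4 on day 3 (0.048) and without day 7 replicate 4 on day 7 (0.041). Without day 0 replicate 4 it was called lower on days 10 and 12 (adjusted p = 0.028 and 0.0020). With all libraries, limma voom with weights by day called it higher on days 3 and 7 (adjusted p = 0.030 and 0.036), and limma on log2(FPKM + 1) and log2(FPKM + 0.1) called it higher on day 7 (0.042 and 0.040).

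Tgfbr3, on chromosome 5 (107106570 to 107289629, minus strand), encodes betaglycan, a co-receptor that presents TGF-beta2 and binds inhibin. Its level was 29.3, 35.8, 33.9 and 28.8 FPKM on day 0 and stayed within 25.7 to 34.6 FPKM in all libraries of days 3 to 12. None of these days was called, with log2 fold changes of 0.02, -0.02, -0.11, -0.10 and -0.08. On day 14 it was 19.7, 20.9, 21.2 and 23.2 FPKM, below every other library of the series, and 1.64-fold lower than on day 0 (log2 fold change -0.72 ± 0.08, adjusted p = 8.3e-09).

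The 2 latent TGF-beta binding protein genes moved in opposite directions early. Ltbp1, on chromosome 17 (75005568 to 75392512, plus strand), encodes a protein that ties latent TGF-beta to the matrix. Its level was 10.8, 12.5, 11.6 and 10.2 FPKM on day 0 and 7.34, 6.06, 6.35 and 4.95 FPKM on day 3. It was called lower on each day, by -0.81, -0.88, -0.67, -0.51, -0.40 and -1.09 on the log2 scale on days 3, 5, 7, 10, 12 and 14 (adjusted p at most 0.00047). Over the alternatives that recomputed it, the day 12 difference ranged from -0.47 to -0.23 and stayed called. The day 14 libraries gave 5.18, 5.85, 6.04 and 5.99 FPKM. Libraries did not overlap with day 0 on TMM-scaled values, although 1 library of day 12 (10.6 FPKM) exceeded the lowest of day 0 in FPKM.

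Ltbp2, on chromosome 12 (84783212 to 84876532, minus strand), encodes a related matrix protein that, unlike LTBP1, does not bind latent TGF-beta. It had 4.12, 2.73, 2.66 and 3.46 FPKM on day 0 and 6.96, 6.73, 6.84 and 6.60 FPKM on day 3, all above day 0 (2.18-fold, log2 fold change 1.12 ± 0.10, adjusted p = 1.1e-10). It was also called higher on day 5 (0.71) and day 7 (0.55), and not on day 10 (0.06) or day 12 (0.21). Without day 0 replicate 1, Ltbp2 was called higher on those days too (adjusted p = 0.047 and 0.00094).

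On day 14 Ltbp2 was at 2.72, 3.06, 3.00 and 3.12 FPKM, inside the range of day 0. Its call of a lower level (log2 fold change -0.25, adjusted p = 0.032) had an exact permutation p of 0.29 and was lost without any of day 0 replicates 1 and 4 and day 14 replicates 1 and 2 (adjusted p 0.054 to 0.77), and in 8 other alternatives. An antisense gene, D030025P21Rik, shares 764 exonic bases with Ltbp2 and had 1 to 16 counts per library, against at least 922 for Ltbp2. The deposited FPKM put Ltbp1 above Ltbp2 on day 0 by 1.82 ± 0.40 (SD) on the log2 scale, and the values were nearly level on day 3, at -0.15 ± 0.20. With the GENCODE lengths these differences were 1.25 and -0.71.

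Inhba, on chromosome 13 (16011851 to 16031621, plus strand), had the largest increase of the 10 genes. Its level was 0.284, 0.256, 0.327 and 0.362 FPKM on day 0 (151 to 193 counts) and 2.26, 2.14, 2.32 and 2.32 FPKM on day 3 (1214 to 1319 counts). On day 5 it was 2.39, 2.38, 2.26 and 2.04 FPKM. Inhba was thus 7.65-fold higher on day 3 (log2 fold change 2.94 ± 0.10, adjusted p = 7.3e-20) and 7.60-fold higher on day 5, with every library above every library of day 0 (exact permutation p = 0.0286). On log2(FPKM + 1), which understates changes of low genes, the day 3 difference was 1.32 for Inhba and -1.33 for Tgfb2.

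Inhba then came down in a step. It was 1.85, 2.02, 1.61 and 2.20 FPKM on day 7 and 1.80, 1.79, 1.56 and 1.53 FPKM on day 10, and only 0.601, 0.619, 0.658 and 0.604 FPKM on day 12. No library of day 12 reached those of day 10. The fall from day 10 to day 12 was 2.86-fold (log2 fold change -1.52 ± 0.09, adjusted p = 2.3e-13), the largest change of any of the 10 genes between neighbouring wound days. On day 14 it was 0.455, 0.526, 0.472 and 0.505 FPKM, still above every library of day 0 (log2 fold change 0.55 ± 0.10, adjusted p = 2.0e-05). In the order of levels, days 3, 5, 7 and 10 overlapped with their neighbours, and days 12, 14 and 0 followed without overlap.

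Fst, also on chromosome 13 (114452290 to 114458951, minus strand), moved the other way. Its level was 14.2, 18.7, 19.7 and 15.1 FPKM on day 0 and 12.6, 11.04, 10.8 and 11.6 FPKM on day 3. The lowest mean level was that of day 7, with 10.4, 9.97, 10.6 and 10.3 FPKM (log2 fold change -0.72 ± 0.08, adjusted p = 2.0e-08). Fst was called lower on each of the 6 days, by -0.50, -0.65, -0.72, -0.35, -0.61 and -0.67 on the log2 scale, with no overlap of TMM-scaled values. In FPKM, the highest library of day 10 (14.3) slightly exceeded the lowest of day 0. Day 0 libraries 1 and 4, with the higher muscle markers, had the lower Fst.

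Relative to day 0, the ratio of Inhba to Fst in FPKM therefore changed more than either gene. It went from 0.0186 ± 0.0044 (SD, n = 4) at day 0 to 0.197 ± 0.015 and 0.218 ± 0.023 on days 3 and 5. For days 7, 10 and 12 it was 0.186, 0.121 and 0.0509, and the final value was 0.0421 ± 0.0021. Fst stayed above Inhba in each library, also with GENCODE lengths, by which the ratio was 0.0669 on day 0 and 0.786 on day 5. The deposited FPKM of Inhba correspond to 14541 bases, where GENCODE exons cover 6390, and those of Fst to 2896 against 4589, so the size of the ratio depends on the length and its course over the days does not.

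Comparisons of each wound day with the one before it do not use the day 0 libraries as a reference. From day 3 to day 5, 3 of the 10 genes were called, beside 24.3% of all genes: Tgfb2 (log2 fold change 1.18) and Tgfb3 (0.63) rose and Ltbp2 (-0.41) fell. From day 5 to day 7, 4 were called, beside 28.5%: Tgfb2 (0.87) and Tgfb3 (0.95) rose further, and Tgfb1 (-0.29) and Inhba (-0.29) fell. The ligands Tgfb2 and Tgfb3 thus rose in both intervals, with no overlap of libraries. The calls of Tgfb1 and Inhba were lost without day 5 replicate 4 and without day 7 replicate 3, respectively (adjusted p = 0.060 and 0.080), and that of Inhba also on log2(FPKM + 0.1) (0.068).

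From day 7 to day 10, 5 were called, beside 32.3% of all genes: Tgfb3 (0.28) and Fst (0.37) rose, and Ltbp2 (-0.48), Tgfbr2 (-0.33) and Inhba (-0.25) fell. The calls of Tgfbr2 and Inhba were near the threshold, and both were lost with no composition normalization (adjusted p = 0.068 and 0.086), with no filter and on both log2 FPKM scales. That of Tgfbr2 was also lost without any of day 7 replicates 1, 2 and 3 and day 10 replicates 1, 2 and 4 (adjusted p 0.064 to 0.082), and that of Inhba without day 7 replicate 2 or 4 or day 10 replicate 3 or 4 (0.071 to 0.13). Without day 10 replicate 4, 3 genes were called. From day 10 to day 12, Inhba, Tgfb1 (-0.50), Tgfb3 (-0.44) and Fst (-0.26) fell, 4 of 10 beside 39.4% of all genes, and none of the 10 was called higher. The call of Fst was lost with no composition normalization (adjusted p = 0.094) and on log2(FPKM + 1) and log2(FPKM + 0.1) (0.094 and 0.092). With the 8 libraries of both days alone, more of the 10 were called for this step, as given below.

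The step from day 12 to day 14 was shared by most of the genes. Of the 10, 9 were called and all 9 were lower on day 14, beside 45.2% of all genes called in either direction. The log2 fold changes were -0.94 for Tgfb2, -0.76 for Tgfbr2, -0.70 for Tgfb3, -0.69 for Ltbp1, -0.63 for Tgfbr3, -0.46 for Ltbp2, -0.33 for Inhba, -0.29 for Tgfb1 and -0.25 for Tgfbr1. The call of Inhba was lost on log2(FPKM + 1) (adjusted p = 0.059). Fst was not called (-0.05, adjusted p = 0.63). The median was -0.55 for the 10 genes and -0.04 over all genes tested. In a joint test of change among the 6 wound days all 10 genes were called, beside 85.1% of all genes, with the highest F for Inhba (248) and the lowest for Tgfbr1 (5.48, adjusted p = 0.0019).

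The courses of the genes were compared across the 28 libraries by Pearson's correlation of log2 CPM, as a description, since libraries of a day share their condition. Tgfb1 went with Inhba (r = 0.90) and Ltbp2 (r = 0.89), Tgfb2 went with Tgfb3 (r = 0.82), and Tgfb1 with Tgfb3 had r = -0.32. Among 12318 genes with a mean of at least 5 CPM, the closest to Tgfb1 were Sirpa (r = 0.98), Cd68 (0.98) and Itga5 (0.98), of which Cd68 is a macrophage marker. The closest to Tgfb2 were Mxra7 (0.96), Osr2 (0.95) and Sparcl1 (0.93), and to Tgfb3 Itm2a (0.97), C1qtnf2 (0.96) and 2310022B05Rik (0.95).

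The genes closest to Tgfbr2 were Limk1 (r = 0.98), Itpripl2 (0.97) and Medag (0.97), and those closest to Tgfbr3 were Flt4 (0.94), Tent5a (0.93) and Mapre2 (0.93). Tgfbr1 had weaker neighbours, Slx4 (0.86), Ankib1 (0.86) and Dido1 (0.85). Ltbp1 was closest to Gem (0.94), Adcy2 (0.93) and Ackr2 (0.91), and Ltbp2 to Ncf1 (0.96), Sirpb1a (0.95) and Actr3 (0.95), of which Ncf1 encodes a subunit of the phagocyte NADPH oxidase. Inhba was closest to Rbp2 (0.98), Sprr2d (0.98) and Spp1 (0.97), which include Sprr2d, a cornified envelope gene, and Spp1, the gene of osteopontin. Fst was closest to Klhl30 (0.90), Asb2 (0.87) and 1110002E22Rik (0.87).

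Other genes of the pathway were grouped in lists by role. Of 19 genes for release and activation of latent TGF-beta (integrins, proteases, thrombospondin 1, fibrillins and others), 13 were called higher and 4 lower on day 3. The counts were 15 and 3 for day 7 and 3 and 9 for day 14. Of all genes, 31.8%, 25.6% and 28.2% were called higher at these 3 times and 34.8%, 24.8% and 34.5% lower. The list median of the log2 fold change was 0.59 on day 3, 0.52 on day 7 and -0.13 on day 14, beside -0.03, 0.002 and -0.06 over all genes. Thbs1, which encodes the activator thrombospondin 1, had the largest increase of this list (log2 fold change 4.43 ± 0.21 on day 3, adjusted p = 2.8e-16). Its level went from 15.3 FPKM on day 0 (SD 7.3) to 318 on day 3. Mmp9, a gelatinase able to release TGF-beta, had the largest fall (-3.63 ± 0.30 on day 14). Its level went from 10.6 FPKM on day 0 (SD 6.4) to 0.935 on day 14, after 35.8 FPKM on day 3.

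Of listed genes for other ligands and ligand subunits of the wider TGF-beta family, not only activins, 6 of the 9 in the table passed the filter. Of these, 3 were higher and 3 lower on day 3, beside 31.8% and 34.8% of all genes. On day 10, 5 were higher and 1 lower, beside 23.5% and 26.9%. Gdf3 rose most (log2 fold change 3.02 ± 0.41 on day 3, from 0.175 to 1.37 FPKM), also from uneven libraries on day 0 (SD 0.158 FPKM). Mstn, which encodes myostatin, a muscle-derived inhibitor of muscle growth that follistatin also binds, fell most (-4.41 ± 0.18 on day 3). Its level went from 40.5 FPKM on day 0 (SD 14.4) to 1.82 FPKM on day 3. Among 10 other receptors tested, 3 were higher and 5 lower on day 3, against 2 and 3 at the last time point, where 28.2% and 34.5% of all genes were called. Bambi, which encodes a decoy receptor without kinase activity, was 7.80 FPKM on day 14 against 1.29 on day 0 (2.47 ± 0.13), and Igsf1 fell most (-4.27 ± 0.70 on day 14, from 0.362 to 0.0198 FPKM), from uneven libraries on day 0 (SD 0.348 FPKM).

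Of 13 extracellular antagonists tested, 3 were higher and 8 lower on day 3, with a list median of -1.07, beside 31.8% and 34.8% of all genes and a median of -0.03. At day 14, 1 was higher and 9 were lower, with a median of -0.43, beside 28.2% and 34.5% and a median of -0.06. Bgn, the matrix proteoglycan biglycan, rose most, from 273 FPKM on day 0 to 902 on day 7 (log2 fold change 1.72 ± 0.09). Fstl4, a follistatin-like gene at low level, fell most (-3.47 ± 0.46 on day 3, from 0.227 to 0.0193 FPKM).

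Of 19 SMAD genes and their regulators, 8 were higher and 5 lower on day 3, beside 31.8% and 34.8% of all genes. The counts were 4 and 3 for day 10 (23.5% and 26.9% of all genes) and 8 and 6 for day 14 (28.2% and 34.5%), and the list medians at these times were 0.06, -0.02 and -0.01. Tgif2, a transcriptional repressor of SMAD targets, had the largest increase (2.11 ± 0.17 on day 14, from 0.403 to 1.90 FPKM), and Zfyve9, the SMAD anchor SARA, the largest decrease (-0.88 ± 0.07 on day 3).

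Of 26 genes known as TGF-beta responsive, 9 were higher and 9 lower on day 3, near the 31.8% and 34.8% of all genes. The counts were 17 and 4 for day 7 (25.6% and 24.8% of all genes) and 6 and 11 for day 14 (28.2% and 34.5%), and the list medians at these times were 0.01, 0.66 and -0.22. Timp1, an inhibitor of matrix metalloproteinases, rose most (log2 fold change 5.45 ± 0.28 on day 3, adjusted p = 7.6e-16). Its level went from 11.1 FPKM on day 0 (SD 7.93) to 469 on day 3. Tgfbi, a matrix protein gene named for its induction by TGF-beta, fell most, from 287 FPKM on day 0 to 63.3 on day 14 (-2.31 ± 0.08). Many of these genes also respond to other signals, so the list is not a measure of TGF-beta activity.

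**Figure D4:**
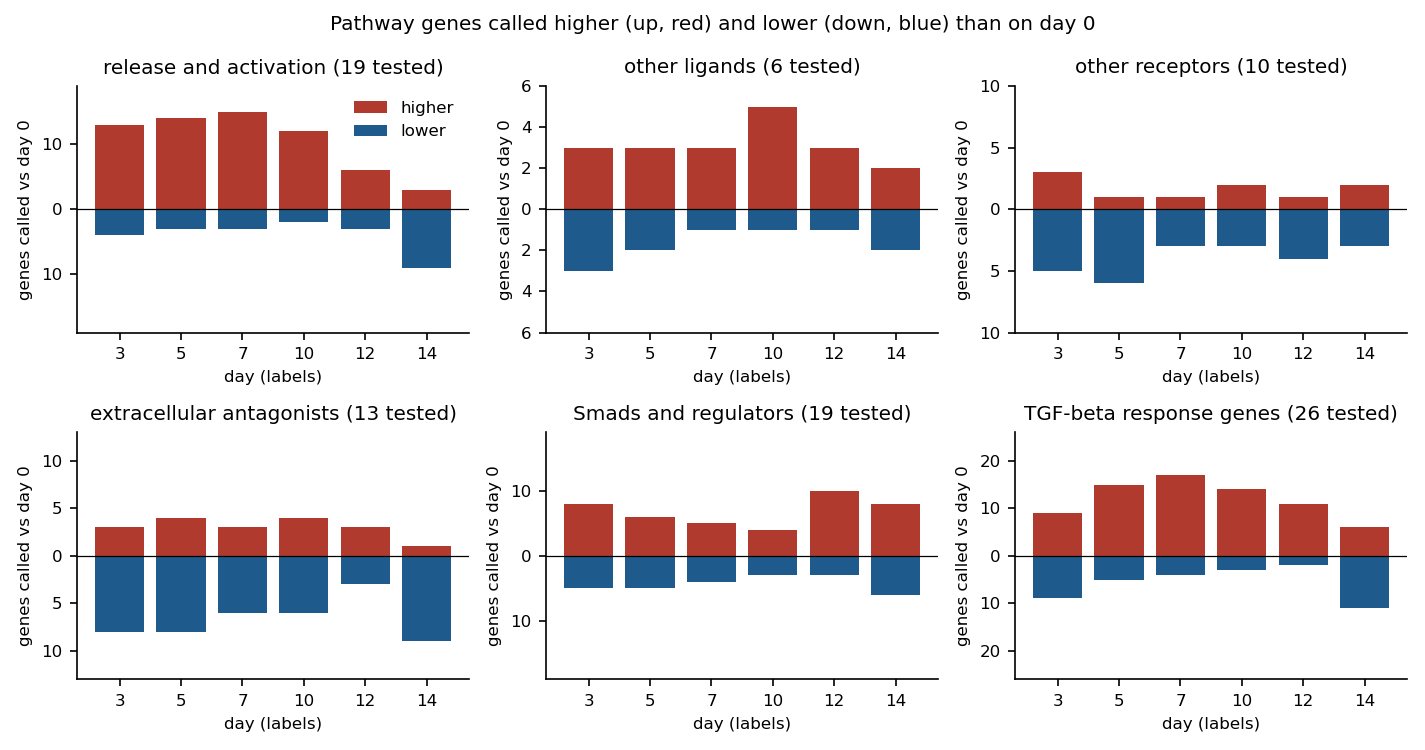
Number of genes called higher (red, upward) and lower (blue, downward) than on day 0 by day (x axis) in 6 lists of pathway genes; the y axis runs to the number of genes tested. In the list for release and activation 15 of 19 genes are higher on day 7, and 9 are lower on day 14.

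RNA of several cell types moved with these genes. In bulk tissue, fewer cells of a type and less RNA per cell cannot be told apart. A list of 10 macrophage markers, all in the table, summed to 1389 to 1954 CPM at day 0 and to 3282 to 3421 and 3282 to 3476 CPM on days 3 and 5. It was 2199 to 2322 CPM at day 7 and 475 to 512 CPM at day 14. At day 10 the sum, 1128 to 1244 CPM, was below every library of day 0, while Tgfb1 was called higher and Ltbp2 was not called, and at day 12 it was 1303 to 1436 CPM. A list of 10 neutrophil markers summed to 16.7 to 42.8 CPM on day 0, with Ly6g and Ngp at 0 in all 4 libraries, and to 4373 to 5519 CPM on day 3, while 8 platelet markers summed to 61.5 to 92.8 and 295 to 305 CPM. The part of these cells in the change of Tgfb1 and Ltbp2 was not tested.

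For Inhba, the list of 6 wound edge keratinocyte markers summed to 471 to 715 CPM at day 0 and 2596 to 3154 CPM at day 3. It came to 1336 to 1508 and 907 to 1025 CPM for days 10 and 12. Between those days, over which Inhba fell, the neutrophil markers went from 224 to 248 CPM to 21.03 to 23.8 CPM, with Ly6g at 0 on day 12. The keratinocyte list was higher again on day 14 (1492 to 1800 CPM), a day on which Inhba was lower than on day 12. The 10 fibroblast markers summed to 2416 to 2688 CPM at day 3, 3989 to 4147 CPM at day 5, and 5979 to 6103 and 6131 to 6829 CPM for days 7 and 10. At days 12 and 14 they gave 4518 to 5035 and 2251 to 2623 CPM, and at day 0 they ranged from 2026 to 4708 CPM with a median of 3611. On days 3 and 14 they were low and Tgfb2 and Tgfb3 were called lower, whereas both ligand genes on day 5 and Tgfb2 on day 12 were called lower with fibroblast markers above the day 0 median. The part of these cells in the changes of Inhba, Tgfb2 and Tgfb3 was not tested.

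The 8 skeletal muscle markers summed to 18165 to 31838 CPM on day 0 and to 4095 to 5272 on day 3, beside the falls of Fst and Mstn, and remained below day 0 on every later day (at most 11154 CPM). The 12 hair follicle markers summed to 303 to 2337 CPM at day 0, then 9.42 to 16.5 for day 3 and 4986 to 6659 for day 14, and 7 adipocyte markers to 4161 to 5156 CPM on day 0 and 3306 to 3731 on day 3. Of the remaining lists, 9 endothelial markers were at 582 to 768 CPM on day 0, at 969 to 1062 on day 3, and below every day 0 library on days 12 (522 to 579) and 14 (490 to 571), the day of the falls of Tgfbr2, Tgfbr3 and Ltbp1, 8 markers of smooth muscle and myofibroblasts at 1004 to 1837 and 447 to 469, 7 basal keratinocyte markers at 4008 to 8335 and 3645 to 4524, and the 7 of 10 T cell markers in the table at 45.3 to 59.0 and 39.2 to 45.6. The part of these tissues in the results was not tested.

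**Figure D5:**
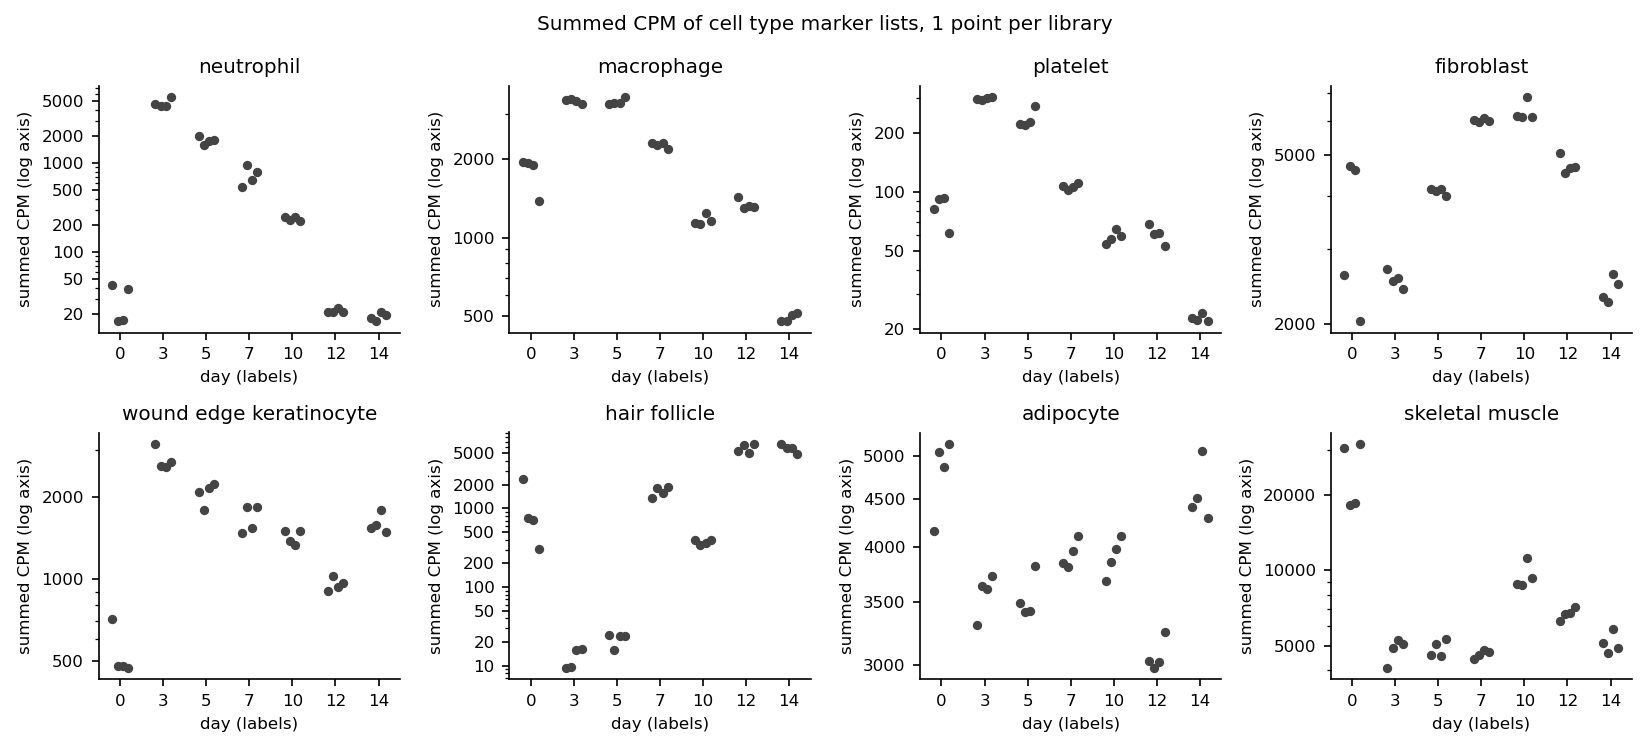
Summed CPM (y axis, log scale) of 8 cell type marker lists in the 28 libraries by day (x axis), 1 point per library. Neutrophil, macrophage and platelet markers are high on day 3, fibroblast markers are highest on days 7 and 10, and skeletal muscle markers are highest on day 0, where libraries 1 and 4 stand above libraries 2 and 3.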

How the data were processed

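Total RNA from mouse skin wounds was extracted with TRIzol, followed by library preparation (VAHTS Universal V6). The submitters' processing notes name fastp, R 3.2.0 and the build mm10 with no role. The aligner, the counting tool and the strandedness are not given in the sources used here, so overlapping antisense genes may share reads. The authors deposited raw counts per gene symbol, and the authors also deposited FPKM per gene and library, which follow from the counts, a length per gene and the library total. Exons of Tgfb2, Tgfb3 and Fst overlap opposite-strand genes that have no row in the table analysed, and those of Tgfbr3 a same-strand one. No column of the tables was left out.

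Groups were taken from the sample labels, and replicate numbers from the titles. The series design names 5 repeats of each day, and 4 were analysed here. The counts entered edgeR 4.0.16 under R 4.3.3 (TMM, filterByExpr by day, quasi-likelihood F test, two-sided) in 1 fit of 28 libraries with 21 residual degrees of freedom. P-values were adjusted over 18107 genes by the Benjamini-Hochberg method. The shared dispersion does not carry the larger spread of day 0. For each of the 10 genes, log2 CPM (prior count 2) of both days were also put to a permutation test, exact and two-sided. Levels of different genes were compared only as FPKM, which use library totals without TMM. Depth was 36706513 to 40655764 counts per library (median 39499595), which gave 151 to 193 counts for Inhba on day 0, the lowest of its days.

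The genes and lists were chosen with earlier results of these data known. Besides the 10 genes, the text names from each pathway list the gene with the largest and the smallest log2 fold change among those called with a mean of at least 1 CPM in the higher group, and per gene the 3 most correlated genes. The genes of the library checks lie outside this rule. Of the listed genes, 4 had no row in the table analysed. Gene positions are from GENCODE M21 (GRCm38, the same assembly as mm10), and promoter sequences from RefSeq. Alternatives were DESeq2's size factors or no composition normalization, other filters, DESeq2 1.42.0, limma 3.58.1 with voom and weights by day or on log2(FPKM + 1) and log2(FPKM + 0.1), the 8 libraries of a comparison, the replicate number as a block, the calling criteria of the study (an absolute log2 fold change above 1.5 with an unadjusted p below 0.05), and each library left out in turn. Tools were tested on simulated data.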

Additional observations from a re-analysis of the deposited data

Results flagged for a closer look

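Among 70 groups of 4 libraries (10 genes on 7 days), 2 held a library whose gap to the nearest other exceeded Dixon's 95% critical value, where chance flags about 1 group in 20, or 3.5 groups. Tgfbr1 was 7.00 FPKM in day 14 replicate 3 against 8.62 to 8.74 in the other libraries, and Ltbp1 was 8.59 FPKM in day 10 replicate 2 against 8.07 to 8.15.

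In 4 genes the difference from day 0 was called higher on one day and lower on another, and the difference between these days was itself tested by edgeR. Tgfb1 was higher on day 3 and lower on day 14, and fell by 1.34 ± 0.09 on the log2 scale between them (adjusted p = 1.5e-13). Ltbp2 did likewise, and fell by 1.37 ± 0.10 on the log2 scale between days 3 and 14 (adjusted p = 1.6e-12). For both genes the call on day 14 against day 0 was lost in several alternatives. Tgfb3 was lower on day 3 and higher on day 10, with a log2 fold change of 1.85 ± 0.08 between them (adjusted p = 3.1e-17). Tgfbr2 was higher on day 5 and lower on day 14, and fell by 1.35 ± 0.12 on the log2 scale between them (adjusted p = 1.8e-10).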

How the results depend on the processing

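Of 85 differences of single genes that were recomputed, 71 were called, 61 of these were called in every alternative other than the criteria of the study, under which only counts were recomputed, and none of the 71 changed direction. The other 10 lost the call in at least 1 of these alternatives, and 8 uncalled differences gained one. The 85 hold every comparison with day 0, but only those steps between neighbouring wound days that were called. Gains among the uncalled steps are therefore not in these numbers. On log2(FPKM + 1) the day 3 difference shrank to 1.32 for Inhba and -1.33 for Tgfb2, since the pseudocount is large beside these levels. Reversals were seen only among uncalled differences near 0. Tgfbr3 on day 3 was -0.0321 with no composition normalization, -0.0258 on log2(FPKM + 1), -0.0264 on log2(FPKM + 0.1) and -0.00347 with the 8 libraries alone. For day 12 it was 0.0611, 0.0639 and 0.0658 in the first 3 of these settings. Tgfbr2 on day 10 was 0.0287 on log2(FPKM + 1) and 0.0297 on log2(FPKM + 0.1). With single libraries left out, Tgfbr2 on day 10 ranged from -0.23 to 0.0545, Ltbp2 on day 10 from -0.0198 to 0.209, Tgfb2 on day 7 from -0.205 to 0.058, and Tgfbr3 on day 5 from -0.0605 to 0.0488. No composition normalization moved the median log2 fold change of all genes by 0.14 on day 12 and 0.13 on day 14. With it, the genes higher were 5 on day 12 and 2 on day 14, and both FPKM scales gave 5 on day 12. Between days 7 and 10 it gave 3 genes, as did no filter and both FPKM scales, and 3 to 4 with 1 library left out; the 8 libraries alone gave 7 between days 10 and 12. The criteria of the study, read as an absolute log2 fold change above 1.5, were applied to the edgeR fit, whereas the study used DESeq2. By them, 1 gene was higher on days 3, 5, 7 and 10 and 0 on days 12 and 14. Likewise 1 was lower on days 3 and 14 and 0 on days 5, 7, 10 and 12. Between days 10 and 12, 1 differed and 0 between the other neighbouring days, as these criteria ask for larger changes.

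Replicate numbers did not pair the libraries (correlation of deviations of same-numbered libraries -0.08 to 0.18 over 84 pairs). With the replicate block 16 of 18 counts were equal, 6 genes instead of 5 were higher on day 7 (Tgfbr2, adjusted p = 0.0448) and 6 instead of 5 differed between days 7 and 10. The planned fit with Xist as a covariate was not run, because Xist did not pass the filter. The causes of these changes were not tested.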
